A study of Drosophila melanogaster with 6 samples.

Results

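The 9 genes described here encode enzymes of glycolysis in *Drosophila melanogaster*: *Pgi*, *Pfk*, *Tpi*, *Gapdh1*, *Gapdh2*, *Pgk*, *Eno*, *PyK* and *Ldh*. They were selected by gene symbol as enzymes of 1 pathway, and all 9 had a row among the 17559 genes of the count files. RNA of whole female heads was sequenced in 6 control libraries, each made from a pool of 35 to 40 heads. The Dicer2 25C control (n = 3) carried UAS-Dicer2/+ besides the driver *Elav-GAL4*, which acts in neurons and stood over a w[1118] chromosome, and was reared at 25°C. The RT control (n = 3) had the *Elav-GAL4* driver over w[1118] without that transgene and was kept at room temperature. Both came from a cross to the w[1118] stock v60000, which they shared as a parent, and carried no RNAi construct. The study lists the *Elav-GAL4* stocks with UAS-Dicer2 and the stock without it from different sources, so the driver parents differed. A listed stock with UAS-Dicer2 also carries the transgene mcd8-GFP, and its use for these libraries is not stated in the study's methods. The age of the flies is not given in the sources used here. Genotype, driver stock, Dicer2 and temperature change together between the groups and cannot be told apart. The knockdown libraries of the study were not analysed here.

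Glycolysis splits glucose into pyruvate in the cytosol and yields ATP and NADH on the way. The pyruvate enters the mitochondria, or lactate dehydrogenase turns it into lactate and so restores NAD. In the fly, trehalose is the main sugar of the blood, glia are known to break down sugar and to pass lactate and alanine to neurons, and the fat body stores glycogen and makes trehalose.

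The total count per library ran from 18651266 to 42487803, with the RT control libraries all deeper than the Dicer2 25C control libraries. Levels are given as CPM, the counts per 1e+06 counts of a library after scaling by the TMM method of edgeR. A count of 3, taken as the floor, corresponded to between 0.071 and 0.16 CPM. The lowest count of any of the 9 genes in any library was 107, for *Ldh*, and the next lowest gene, *Pgk*, had at least 7540. The transgene label was checked by *Dcr-2*, whose mean was 572 CPM in the Dicer2 25C control and 58.0 CPM in the RT control. The head was recognizable by the rhodopsin gene *ninaE* (lowest library 30975 CPM) and the neuronal gene *elav* (lowest library 146 CPM), while the 5 measured ovary markers together stayed at or under 1.2 CPM in every library.

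None of the 9 glycolytic genes passed the test between the control groups. Their median log2 fold change (RT over Dicer2 25C) was 0.19, against a median of 0.00 over all 10187 genes tested. Replicate 1 of the RT control stood apart, with all 9 genes higher than in the other RT libraries, by a ratio of 2.36 for *Pgi* and of 1.03 for *Pfk*. In edgeR's quasi-likelihood test 0 of 9 were called at an adjusted p under 0.05, and 1 (*Ldh*) had an unadjusted p under 0.05. Of all genes tested, 5.28% were called higher and 4.83% lower in the RT control by this rule, and 2.82% when an absolute log2 fold change above 1 was also asked for. DESeq2 and edgeR's likelihood ratio test each called 1 of the 9, *Ldh* in both cases. All 9 log2 fold changes were above 0 in this fit, as were 49.5% of those of all genes tested. Only 5 of the 9 were above 0 with scaling by total counts alone, and 7 with upper quartile scaling. There were 5 again when replicate 3 of the Dicer2 25C control was left out, and 7 when replicate 1 of the RT control was. The small fold changes therefore have no settled direction. In whole heads, fewer cells of a type and less RNA per cell cannot be told apart.

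**Figure D1:**
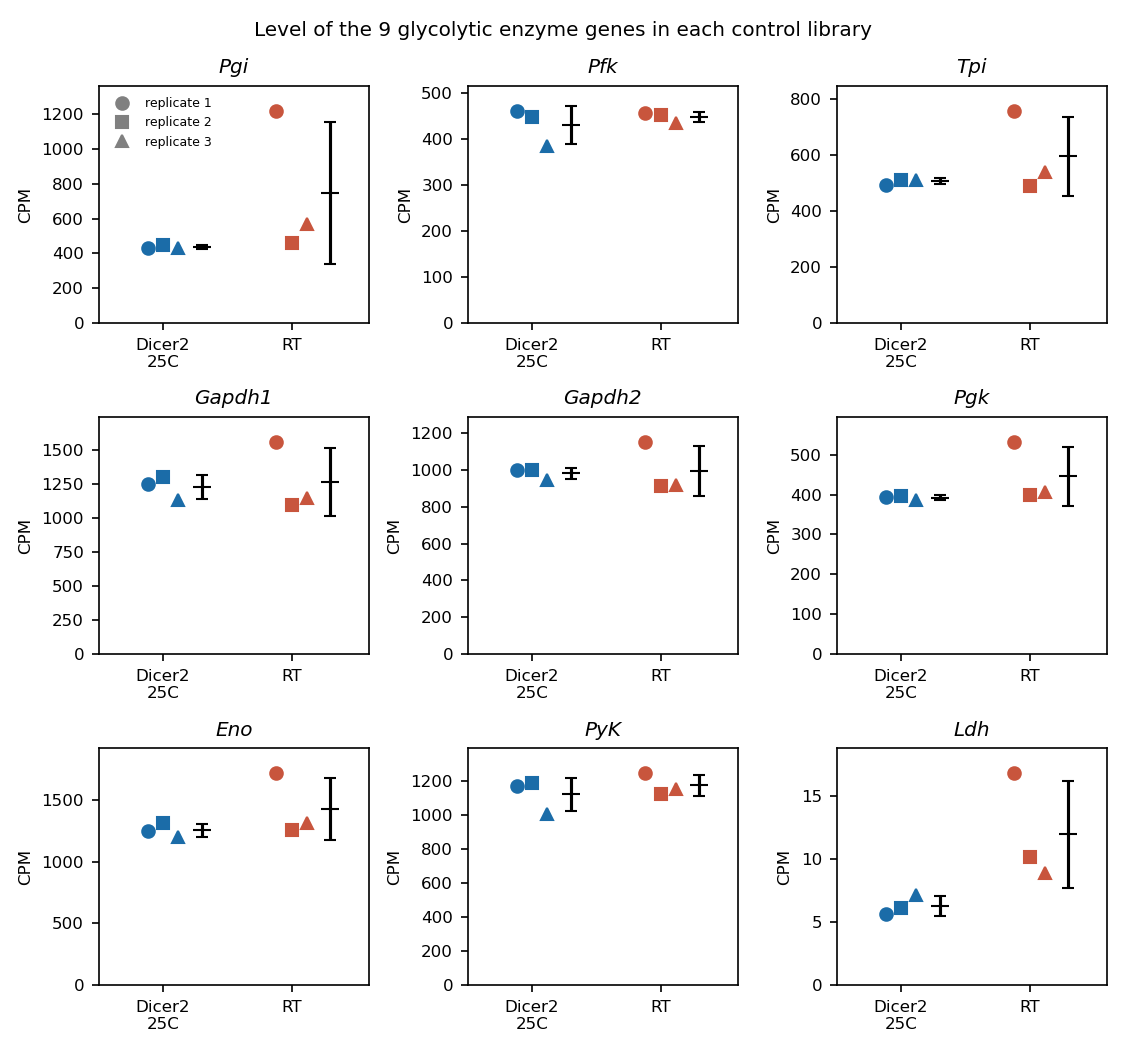
Level of each glycolytic enzyme gene in CPM (vertical axes, from 0) in the 3 libraries of the Dicer2 25C control (blue) and the 3 of the RT control (red), with the replicate number as symbol and the mean ± SD in black. Replicate 1 of the RT control (red circle) was the highest RT library for all 9 genes, most clearly for *Pgi* at 1217 CPM.

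The upper part of the pathway begins with *Pgi* (FBgn0003074, chromosome 2R from 8910900 to 8914069, minus strand, BDGP6 annotation), phosphoglucose isomerase, which converts glucose 6-phosphate to fructose 6-phosphate. Its level was 431, 449 and 434 CPM in replicates 1, 2 and 3 of the Dicer2 25C control and 1217, 461 and 569 CPM in the RT control. The RT libraries lay above the Dicer2 25C libraries, but replicate 2 by only a little, and the spread within the RT control was 2.64-fold. The log2 fold change was 0.78 with a standard error of 0.35 (edgeR, adjusted p = 0.18), and it was 0.24 (adjusted p = 0.22) with replicate 1 of the RT control left out. Over all alternatives the adjusted p of *Pgi* ran from 0.067 to 0.34.

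*Pfk* (FBgn0003071, chromosome 2R from 10109740 to 10117457, plus strand) encodes phosphofructokinase, the committed and most tightly regulated step of glycolysis. Its level was 461, 449 and 385 CPM in the Dicer2 25C control and 457, 454 and 436 CPM in the RT control. The groups overlapped, and *Pfk* was the steadiest of the 9 genes over the RT libraries, whose highest and lowest values differed by a ratio of 1.05. A larger ratio was found for 89.4% of all genes tested.

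*Tpi* (FBgn0086355, chromosome 3R from 30132981 to 30134599, minus strand) encodes triose phosphate isomerase, which interconverts the 3-carbon sugars that aldolase releases. Its level was 495, 513 and 513 CPM in the Dicer2 25C control and 757, 491 and 539 CPM in the RT control. As for *Pgi*, the Dicer2 25C libraries were close together and replicate 1 of the RT control stood apart, but here the groups overlapped. The log2 fold change was 0.23 (standard error 0.17, adjusted p = 0.39 by edgeR), and 0.02 without that library.

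The lower part begins with glyceraldehyde 3-phosphate dehydrogenase, which makes the NADH of the pathway and which the fly encodes in a pair of closely related genes. *Gapdh1* (FBgn0001091, chromosome 2R from 7791901 to 7793380, minus strand) was at 1248, 1299 and 1130 CPM in the Dicer2 25C control and at 1553, 1096 and 1143 CPM in the RT control. *Gapdh2* (FBgn0001092, chromosome X from 15868145 to 15869661, plus strand) was at 1000, 1000 and 948 CPM and at 1150, 915 and 919 CPM. For both, replicate 1 of the RT control was the highest of all 6 libraries and the other RT libraries were within or below the range of the Dicer2 25C control. Their log2 fold changes were 0.04 (standard error 0.16) and 0.02 (standard error 0.12), and turned negative without replicate 1 of the RT control (-0.13 and -0.10).

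The balance between the *Gapdh* copies needs no scaling. *Gapdh2* took 44.5%, 43.5% and 45.6% of the reads counted on the pair in the Dicer2 25C control, and 42.5%, 45.5% and 44.6% in the RT control. The widest 95% interval (Clopper-Pearson, counting error only) ran from 44.0% to 45.0%, so libraries of 1 group differed by more than counting error. The group means were 44.5% ± 1.07 and 44.2% ± 1.51 (SD, n = 3 each), a difference within that spread (p = 0.8, exact permutation test, two-sided, 10 splits, where the smallest possible p is 0.1). The sign of the difference turned when replicate 3 of the Dicer2 25C control was left out (0.22 percentage points, against -0.32), and also when replicate 1 of the RT control was (0.51). The counting of reads that fit both copies equally well is not given in the sources used here. Alignments that were not unique numbered 69361668 in replicate 1 of the Dicer2 25C libraries and at most 8454145 elsewhere, and their part in the *Gapdh2* share was not tested.

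*Pgk* (FBgn0250906, chromosome 2L from 2746880 to 2753068, minus strand), phosphoglycerate kinase, catalyzes the first ATP-yielding step. Its level was 395, 396 and 386 CPM in the Dicer2 25C control and 531, 400 and 407 CPM in the RT control. The groups did not overlap, with a gap from 396 to 400 CPM between them. The log2 fold change was 0.19 (standard error 0.12, adjusted p = 0.36 by edgeR).

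*Eno* (FBgn0000579, chromosome 2L from 1724768 to 1729636, minus strand), enolase, makes phosphoenolpyruvate. Its level was 1251, 1310 and 1204 CPM in the Dicer2 25C control and 1716, 1260 and 1310 CPM in the RT control. The groups overlapped, and the log2 fold change of 0.19 (± 0.14 SE, edgeR adjusted p = 0.41) was 0.03 when replicate 1 of the RT control was left out. *Eno* shares 362 exonic bases with *Rrp40* on the opposite strand, and *Pgk* shares 65 with *Cwc25*. The strand setting of the counting is not given in the sources used here, so reads from these stretches cannot be assigned.

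*PyK* (FBgn0267385, chromosome 3R from 22367536 to 22372746, plus strand) encodes pyruvate kinase, which makes pyruvate and again yields ATP. Its level was 1172, 1188 and 1010 CPM in the Dicer2 25C control and 1247, 1128 and 1156 CPM in the RT control. The groups overlapped, and the RT libraries spread by a ratio of only 1.11. The log2 fold change was 0.07 (standard error 0.11, adjusted p = 0.7 by edgeR).

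*Ldh* (FBgn0001258, chromosome 3L from 6259105 to 6262694, minus strand), lactate dehydrogenase, is known in the fly for high expression in growing larvae. It was the rarest of the 9 transcripts, with 107, 156 and 168 counts in the Dicer2 25C control and 549, 430 and 292 in the RT control. Its level was 5.6, 6.11 and 7.16 CPM in the Dicer2 25C control and 16.8, 10.2 and 8.89 CPM in the RT control. The RT libraries were all higher. By counting error alone (exact Poisson, 95%), the Dicer2 25C libraries reached up to 8.33 CPM, below the lower bounds of 15.4 and 9.25 CPM of replicates 1 and 2 of the RT control, but above that of replicate 3 (7.9 CPM).

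*Ldh* was 1.89-fold higher in the RT control (log2 fold change 0.92 ± 0.25 SE) and did not pass (edgeR's quasi-likelihood test, adjusted p = 0.063). The adjusted p was 0.005 with DESeq2 and 0.011 with edgeR's likelihood ratio test, both under 0.05. Without replicate 1 of the RT control it was 0.048, at a smaller fold of 1.52. With each of the other libraries left out, it stayed above 0.05, up to 0.19. The call of *Ldh* therefore depends on the test and on single libraries, while the direction was the same in every alternative run.

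*Ldh* was also set against *PyK*, which makes its substrate, within each library. There were 4.78, 5.15 and 7.09 *Ldh* reads per 1000 *PyK* reads in the Dicer2 25C control and 13.4, 9.03 and 7.69 in the RT control. The ratio was higher in every RT library than in any Dicer2 25C library, with means of 10.1 ± 3.0 and 5.67 ± 1.24 (SD, n = 3 each). On the log2 scale the ratio differed by 0.81 (p = 0.1, exact permutation test, two-sided), the smallest p that 3 against 3 libraries allow.

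In all, the groups did not overlap for 3 of the 9 genes, *Pgi*, *Pgk* and *Ldh*, each higher in the RT control. Of all genes tested, 19.5% lay higher without overlap in the RT control and 18.0% lower, which is the background to read the 3 of 9 against.

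Levels of different genes were compared per kb of coding length. In the Dicer2 25C control the order was *Gapdh1* (1231 ± 86.9 CPM per kb), *Gapdh2* (987 ± 29.9), *Eno* (837 ± 35.6), *PyK* (703 ± 61.6), *Tpi* (486 ± 10.2), *Pgk* (315 ± 4.57), *Pgi* (261 ± 5.71), *Pfk* (151 ± 14.2) and *Ldh* (6.32 ± 0.80; SD, n = 3). The ranges of neighbours in this order did not overlap. *Gapdh1*, *Gapdh2*, *Eno* and *PyK* of the lower part of the pathway were thus higher per coding length than *Pgi*, *Pfk* and *Tpi* of the upper part, while *Pgk* lay above *Pgi* and *Pfk* and below *Tpi*. *Ldh* was 195-fold below *Gapdh1*.

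In the RT control the same order held but for *Pgi* (447 ± 244 CPM per kb), which passed *Pgk* (358 ± 59.2). Here *Gapdh1* and *Gapdh2*, *Gapdh2* and *Eno*, *PyK* and *Tpi*, *Tpi* and *Pgi*, and *Pgi* and *Pgk* overlapped between neighbours. *Pfk* (157 ± 3.99) and *Ldh* (12 ± 4.23) remained the lowest, with *Ldh* 106-fold below *Gapdh1*. With the merged exon length in place of the coding length, *PyK* came before *Eno* in both groups, since the merged exons of *Eno* span 3718 bases against 1500 coding bases. On that length *Eno* (338 ± 14.4 CPM per kb) overlapped with *Tpi* (325 ± 6.84) in the Dicer2 25C control, as it did in the RT control (384 ± 67.2 and 382 ± 91), so the order of these genes depends on the length used.

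**Figure D2:**
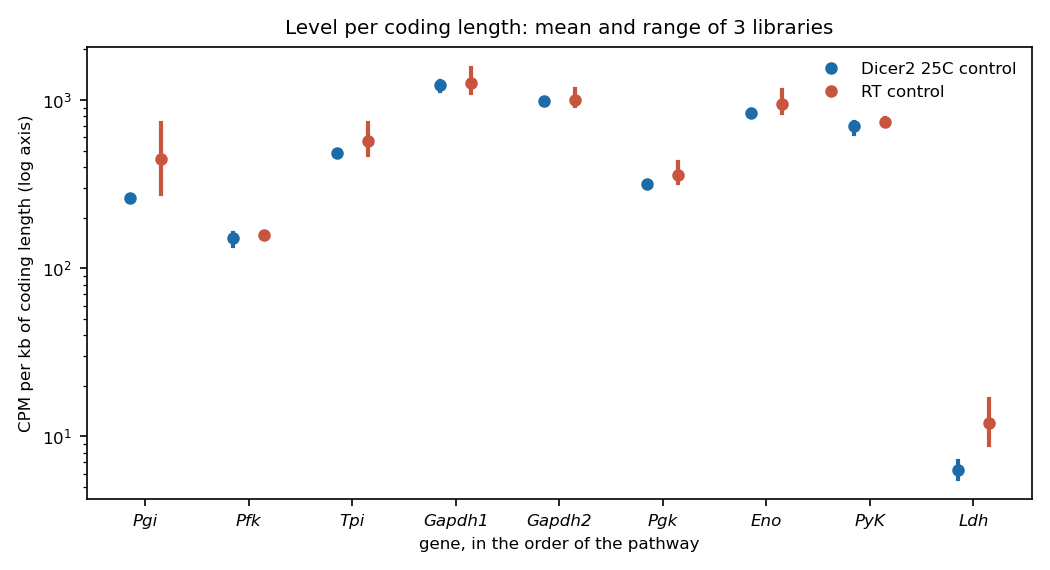
CPM per kb of coding length (vertical log axis) of the 9 genes in the order of the pathway, as the mean (point) and the range (line) of 3 libraries of the Dicer2 25C control (blue) and 3 of the RT control (red). *Gapdh1* was highest and *Ldh* lowest in both groups, at 1231 and 6.32 CPM per kb in the Dicer2 25C control.

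Together the 9 genes took 0.661%, 0.670% and 0.641% of all counted reads in the Dicer2 25C control and 0.812%, 0.617% and 0.629% in the RT control. Replicate 1 of the RT control thus held the largest share, with no scaling factor involved. It was the highest RT library for 9 of 9 genes, as for 43.4% of all genes tested, and the highest of all 6 libraries for 8 of 9, *Pfk* being the exception, as for 24.2% of all genes tested. Its ratio to the mean of the other RT libraries had a median of 1.34 over the 9 genes, against 1.01 over all genes tested. A ratio above the 2.36 of *Pgi* was found for 2.06% of all genes.

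The 9 genes differed among themselves in that library. The ratio was highest for *Pgi*, followed by *Ldh* (1.76), *Tpi* (1.47), *Gapdh1* (1.39), *Eno* (1.34), *Pgk* (1.32) and *Gapdh2* (1.25). It was lowest for *PyK* (1.09) and *Pfk* (1.03). With that library left out, the 9 genes had a median log2 fold change of 0.03.

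Markers of other cell types were measured in the same libraries. In replicate 1 of the RT control, the summed level of 7 fat body markers was 34508 CPM against 48201 and 47266 CPM in the other RT libraries, that of 9 muscle markers 6910 against 7750 and 7813, that of 6 glia markers 2023 against 2303 and 2289, and that of 5 neuron markers 3801 against 3748 and 3636. These sums are carried by a few abundant genes, such as *Yp1* and *Mhc*. Single markers of fat body, muscle and neurons differed in direction. All 6 glia markers were lower in replicate 1 than the mean of the other RT libraries. The ratio of replicate 1 to the mean of the other RT libraries ran from 0.344 to 1.2 over the fat body markers, from 0.725 to 1.26 over the 8 tested muscle markers, from 0.64 to 0.993 over the glia markers and from 0.977 to 1.05 over the neuron markers. Their part in the levels of the 9 genes was not tested. The sums ran from 16483 to 26043 CPM for fat body, 1528 to 1916 for glia and 3577 to 4889 for neurons in the Dicer2 25C control. The sum of 5 photoreceptor markers was between 39247 and 40173 CPM in the RT control and between 48515 and 61228 in the other group. Most of that sum was *ninaE*, at 30975 to 31919 CPM in the RT control and 38465 to 52700 CPM in the Dicer2 25C control. *trp*, *inaD*, *chp* and *norpA* overlapped between the groups, and none of the 5 was called.

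Muscle markers moved within the Dicer2 25C control, with sums of 15917, 15679 and 7491 CPM in replicates 1, 2 and 3. *Pfk*, *Gapdh1*, *Gapdh2*, *Pgk*, *Eno* and *PyK* were likewise lowest in replicate 3 of that group, but their highest and lowest libraries differed by a ratio of at most 1.2. All 8 tested muscle markers had a log2 fold change below 0, from -1.1 for *Mlc2* to -0.282 for *TpnC73F*, with a median of -0.796. *TpnC73F* was the 1 of the 8 that was called, lower in the RT control (adjusted p = 0.044 by edgeR). Of all genes tested, 4.83% were called lower. The part of muscle in these values was not tested. The flight muscle gene *fln* stayed at or under 0.314 CPM in every library. The actin gene *Act88F* of the same marker list was between 9.38 and 29.9 CPM, so *fln* alone does not show that flight muscle was absent. The 4 measured heat shock genes (*Hsp22* is listed at 0 throughout) summed to 3885 CPM in replicate 3 of the RT control, against 46.2 and 360 CPM in replicates 1 and 2. That library was not the highest for any of the 9 glycolytic genes. Any link of these genes to heat shock was not tested.

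The steps that the 9 genes leave out, and a regulator of *Pfk*, were covered by 5 further genes. *Ald1*, an aldolase, was at 1643, 1675 and 1502 CPM in the Dicer2 25C control and at 3038, 1844 and 1931 CPM in the RT control. It repeated the pattern of *Pgi*, without overlap between the groups (log2 fold change 0.50, adjusted p = 0.16 by edgeR). The hexokinase gene *Hex-A*, at a mean of 470 CPM and 439 CPM, did not pass, nor did *Pglym78*, a phosphoglycerate mutase, at 502 CPM and 452 CPM (adjusted p = 0.44 and 0.3).

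A second hexokinase and a regulator of phosphofructokinase did pass the test. *Hex-C* was at 34, 43 and 39.5 CPM in the Dicer2 25C control and at 172, 85.2 and 81.9 CPM in the RT control. That is a rise of 2.9-fold (log2 fold change 1.54 ± 0.30 SE, edgeR adjusted p = 0.03). *Pfrx*, which makes and breaks down an activator of phosphofructokinase, was at 221, 234 and 230 CPM against 476, 368 and 369 CPM, a 1.77-fold difference (adjusted p = 0.015). Both were still called with replicate 1 of the RT control left out (adjusted p = 0.0067 and 0.0088). Over the 6 fits with 1 library left out, *Hex-C* was called in 2 and *Pfrx* in 3, with adjusted p of up to 0.11 and 0.08.

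The paralogs of glycolytic enzymes were near absent. Of 11 such genes, 1 passed the expression filter, the pyruvate kinase paralog *CG7069*, at a mean of 1.19 CPM and 1.26 CPM, and the sum over all 11 was at most 2.47 CPM in any library.

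The storage sugars are the source and sink of the pathway. All 7 genes of trehalose and glycogen metabolism lay higher in the RT control without overlap, as did 19.5% of all genes tested. *Tps1* and *Treh* were called higher by the test, against 5.28% of all genes tested. With 1 library left out, *Tps1* was called in 3 of 6 fits and *Treh* in 2 (adjusted p up to 0.082 and 0.11). Of 7 fat body markers, 6 had a log2 fold change above 0 and 2 were called higher (*Yp3* and *apolpp*), against 5.28% of all genes tested. The marker *to* had a log2 fold change of -0.349, and *Yp2*, *fit* and *Lsp2* overlapped between the groups. The part of fat body in these values was not tested. *Tps1*, trehalose 6-phosphate synthase, was at 364, 458 and 401 CPM in the Dicer2 25C control and at 1419, 791 and 931 CPM in the RT control, 2.57-fold higher (standard error of the log2 fold change 0.23, adjusted p = 0.021 by edgeR). *Treh*, which splits trehalose into glucose, was at 317, 322 and 330 CPM against 446, 436 and 438 CPM, 1.36-fold higher (adjusted p = 0.018), and replicate 1 of the RT control was close to the others. *UGP*, *Pgm1* and *AGBE*, of the route from glucose phosphate to glycogen, had log2 fold changes of 1.10, 1.03 and 0.78 that did not pass (adjusted p = 0.065, 0.074 and 0.073), but did once replicate 1 of the RT control was left out (0.017, 0.03 and 0.021). *Glyp*, glycogen phosphorylase, had the highest mean of the list in the Dicer2 25C control and did not pass (897 CPM, and 1044 CPM in the RT control, adjusted p = 0.25).

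The pentose phosphate pathway branches off before *Pgi*. None of its 6 genes passed the test, although each lay higher in every RT library than in any Dicer2 25C library (19.5% of all genes tested did), with log2 fold changes from 0.57 to 1.53. Replicate 1 of the RT control was the highest library for all 6. *CG8036*, a transketolase gene, was at 230, 269 and 319 CPM against 1446, 428 and 494 CPM (adjusted p = 0.083), and *Taldo*, transaldolase, at 111, 123 and 151 CPM against 731, 159 and 203 CPM (adjusted p = 0.13). Without replicate 1 of the RT control 3 of the 6 passed, *CG8036* (1.69-fold, adjusted p = 0.033), *Zw* (1.27-fold, 0.042) and *Rpi* (1.26-fold, 0.04). In that fit 6.51% of all genes tested were called higher.

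Of 4 genes of gluconeogenesis, 3 were tested. *PCB*, pyruvate carboxylase, rose 1.91-fold in the RT control, from a mean of 379 CPM to 723 CPM (adjusted p = 0.03 by edgeR), and was called in 2 of 6 fits with 1 library left out (adjusted p up to 0.11). *fbp*, fructose bisphosphatase, which opposes phosphofructokinase, was at 59.4, 77.4 and 82.7 CPM against 328, 121 and 120 CPM (adjusted p = 0.078), and passed once replicate 1 of the RT control was left out (1.65-fold, adjusted p = 0.031). *Pepck2* was at 6.87, 1.11 and 1.64 CPM in the RT control, against a mean of 0.628 CPM in the Dicer2 25C control, and did not pass (adjusted p = 0.093). *Pepck1* is listed at 0 in every library, which is not read as a level.

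The fate of pyruvate was followed in 6 measured genes of its entry into the mitochondria. *Pdk*, the kinase that switches off pyruvate dehydrogenase, was at 166, 179 and 192 CPM in the Dicer2 25C control and at 439, 290 and 378 CPM in the RT control, 2.06-fold higher (log2 fold change 1.04 ± 0.16 SE, edgeR adjusted p = 0.017). It was called in 3 of 6 fits with 1 library left out (adjusted p up to 0.083). The pyruvate dehydrogenase genes *Pdha* (454 CPM and 408 CPM), *Pdhb* (367 CPM and 377 CPM) and *CG7430* (511 CPM and 436 CPM), the phosphatase gene *Pdp* and the carrier gene *Mpc1* did not pass (adjusted p from 0.28 to 0.86). *CG7430* had the highest level of this list.

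None of the 9 measured genes of the TCA cycle was called, and 7 of them had log2 fold changes below 0. *kdn*, citrate synthase, had the highest level in the Dicer2 25C control (means of 1433 CPM and 1052 CPM, adjusted p = 0.14). *Scsalpha1* stood apart in replicate 1 of the RT control (760 CPM, against 337 and 355 CPM in replicates 2 and 3). Of the glycerol phosphate shuttle, 3 of 6 genes were tested and none was called, the highest being *Gpdh1* (means of 861 CPM and 684 CPM, adjusted p = 0.1). Of 6 transporter genes, 5 were tested and none was called, with *Tret1-1*, a trehalose transporter (346 CPM and 421 CPM, adjusted p = 0.065), and *Glut1* (323 CPM and 330 CPM, adjusted p = 0.9) at the highest levels. *chk* is listed at 0 in every library, which is not read as a level either.

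Among 8 regulators, 5 had a log2 fold change above 0, and *sima* and *sug* were called higher, against 5.28% of all genes tested. With 1 library left out, *sima* and *sug* were called in only 2 and 1 of 6 fits (adjusted p up to 0.1 and 0.15). *sima*, the fly HIF alpha subunit and a known activator of *Ldh*, was at 157, 156 and 135 CPM against 240, 206 and 210 CPM (1.46-fold, adjusted p = 0.024 by edgeR). *sug*, a zinc finger factor of the sugar response, was at 25.5, 34.8 and 55.9 CPM against 106, 78.1 and 90.9 CPM (2.36-fold, adjusted p = 0.041). *Mondo*, a sugar sensor, had a mean of 111 CPM in the Dicer2 25C control and was at 222, 124 and 131 CPM in the RT control (adjusted p = 0.16), with replicate 1 far above the others. *ERR*, the nuclear receptor that switches on glycolytic genes in the embryo and larva, did not pass (34.2 CPM and 37.5 CPM, adjusted p = 0.39). *fwe*, known for its role in cell competition, had the highest level of the list in the Dicer2 25C control and lay lower in all RT libraries (means of 255 CPM and 193 CPM, adjusted p = 0.056).

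Over the 10 lists beside the 9 genes, 8 of 53 tested genes were called and all 8 were higher in the RT control (15.1%, against 5.28% of all genes). The lists were chosen with earlier results of these data known, so these shares only describe them and are no test of enrichment. Of the 53, 33 had a log2 fold change above 0, against 49.5% of all genes. The 8 called genes were *Hex-C*, *Pfrx*, *PCB*, *Tps1*, *Treh*, *Pdk*, *sima* and *sug*. Of these, 4 (*Hex-C*, *Tps1*, *Pdk* and *sug*) also had a log2 fold change above 1. DESeq2 and edgeR's likelihood ratio test called all 8 as well. Without replicate 1 of the RT control 14 were called higher, 7 of the 8 among them (*sug* was not, adjusted p = 0.063), beside 6.51% of all genes. None of the 8 was called without replicate 1 or replicate 2 of the Dicer2 25C control or without replicate 3 of the RT control, fits in which the calls over all genes also fell, from 1030 to 183, 44 and 88. Without replicate 2 of the RT control 3 were called.

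**Figure D3:**
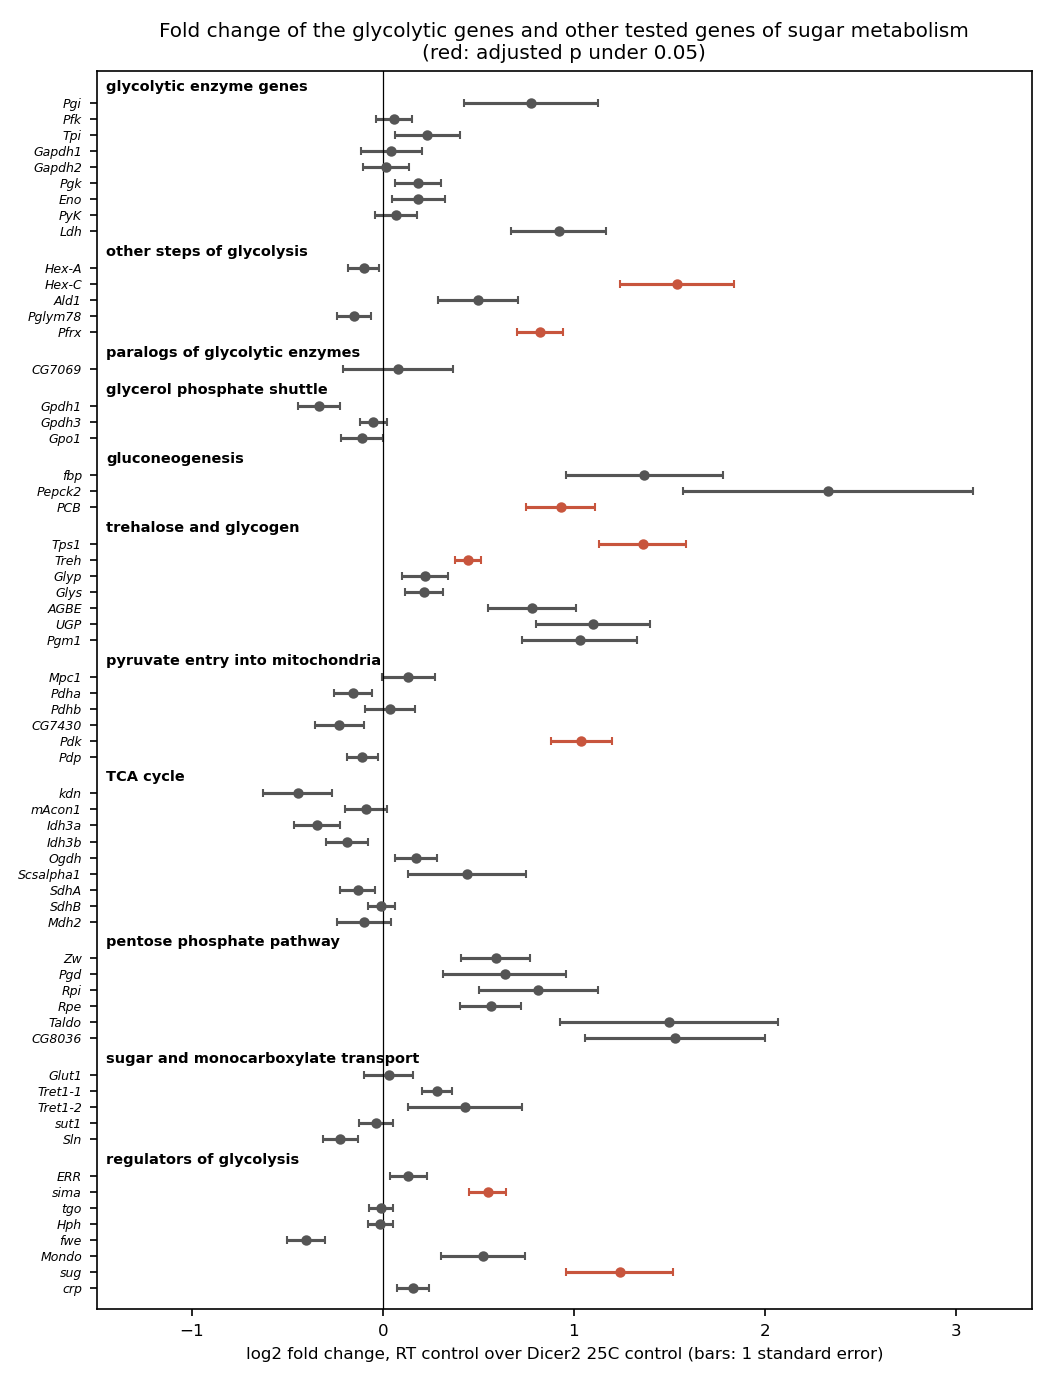
Log2 fold change of the RT control over the Dicer2 25C control (horizontal axis, bars of 1 standard error) for the 9 glycolytic enzyme genes and 53 other tested genes of sugar metabolism, grouped by list, with genes at an adjusted p under 0.05 in red. None of the 9 is red, and the 8 red genes all lie to the right of 0.

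**Figure D4:**
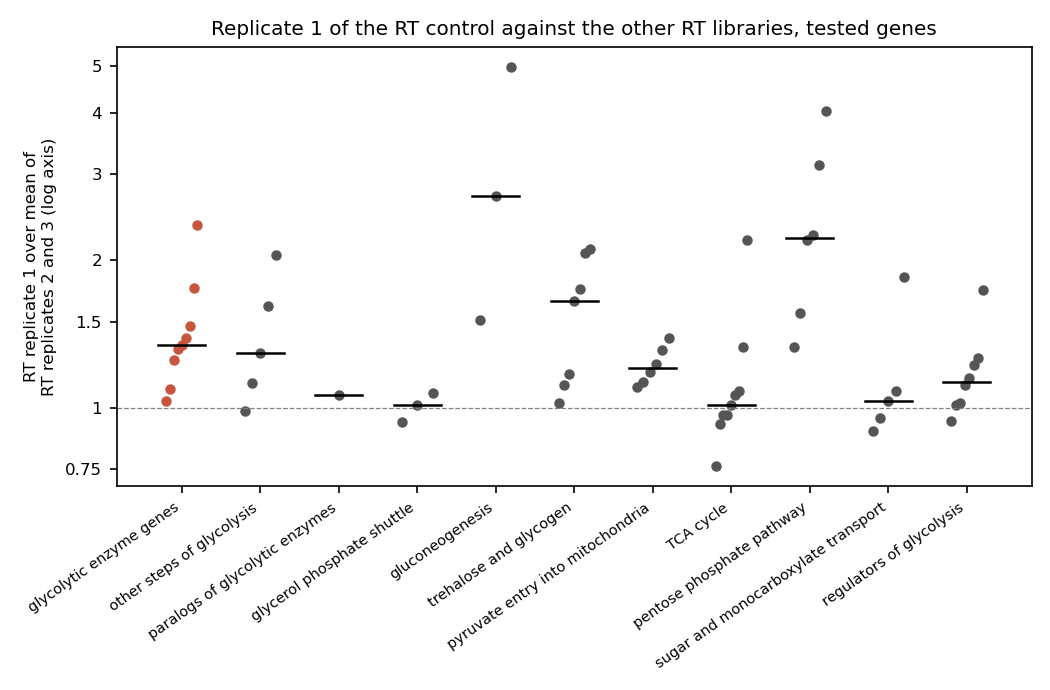
Ratio of replicate 1 of the RT control to the mean of replicates 2 and 3 (vertical log axis) for each tested gene, by list, with the median as a bar and the 9 glycolytic enzyme genes in red. The median was 1.34 for those 9, 2.22 for the pentose phosphate pathway and 1.01 for the TCA cycle.

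The plot of that ratio by list shows where replicate 1 of the RT control stood apart. The median was 2.71 for gluconeogenesis, 2.22 for the pentose phosphate pathway, 1.65 for trehalose and glycogen, 1.34 for the 9 glycolytic genes and 1.29 for the other steps of glycolysis. It was 1.2 for pyruvate entry, 1.13 for the regulators, 1.03 for the transporters and 1.01 for the TCA cycle and the glycerol phosphate shuttle. These ratios describe 1 library, and no test was made of them.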

How the data were processed

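Reads were trimmed by the authors in Trimmomatic 0.36 and aligned in TopHat2 2.1.0 (versions from the submitters' processing notes), and the deposited files hold raw counts made with HTSeq 0.6.1, with a value for each gene and 1 file per library, without normalization or pooling. Strand and multiple-alignment settings are not given in the sources used here. Reads on no gene made up 3.16% to 4.76%, and reads on more than 1 gene 2.36% to 3.62%, of the uniquely aligned reads. Such reads were left out.

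Of 17559 gene identifiers, 17253 matched the BDGP6.54 annotation, used for names, coordinates and lengths. The authors used another annotation release, so lengths are approximate. Counts were fitted with edgeR 4.0.16 (R 4.3.3): TMM factors, filterByExpr, which kept 10187 genes, and the quasi-likelihood test of RT over Dicer2 25C control, with Benjamini-Hochberg adjustment over all of them. Genes were called at an adjusted p under 0.05, and also with an absolute log2 fold change above 1, the study's thresholds. Standard errors were derived from the log2 fold change and F. The fit was tested on simulated counts, whose spread followed the trend over all genes, with no library that stood apart. It called 10.2% of the changed genes at a true log2 fold change of 0.5 and 83.3% at 1, so small changes would mostly be missed. The wider spread of single genes, such as *Pgi* (2.64-fold within the RT control), was not simulated, so these shares may not hold for them. Replicates are biological per the study's methods, and every pair within a group differed by more than sampling noise (chi-square per degree of freedom 32.2 or more).

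Alternatives were RLE, upper quartile and total count scaling, DESeq2 1.42.0, the likelihood ratio test, other filters, the replicate number as a block and each library left out. The genes and lists were chosen with earlier results of these data known. Named are the 9 genes, called genes of the lists and the highest gene of each list, besides genes singled out after their values were seen. Of 70 listed genes of sugar metabolism, 68 were matched. Intervals cover counting error only.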

Additional observations from a re-analysis of the deposited data

How the results depend on the processing

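The count of called glycolytic genes (0) was 1 under DESeq2, 1 under the likelihood ratio test and between 0 and 1 with each library left out, *Ldh* each time, and 0 under every other alternative. With both thresholds it was 0 throughout. *Ldh* had an adjusted p of 0.005 under DESeq2, 0.011 under the likelihood ratio test and 0.048 without replicate 1 of the RT control, and its log2 fold change lay between 0.60 and 1.10 with each library left out. The median log2 fold change of the 9 genes lay between 0.03 and 0.26 with each library left out.

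Some small fold changes changed sign, and the cause was not tested. On the log2 scale, *Gapdh1* was at -0.0141 with upper quartile scaling and -0.0565 with total counts, and between -0.13 and 0.138 with each library left out (-0.0119 without replicate 3 of the Dicer2 25C control, -0.13 without replicate 1 of the RT control). *Gapdh2* was at -0.0396 and -0.0824, and between -0.099 and 0.0757 (-0.00808 and -0.099 without the same libraries). *Pfk* was at -0.0391 with total counts and between -0.0196 and 0.102 with each library left out, and *PyK* at -0.0291 and between -0.00392 and 0.109, both lowest without replicate 3 of the Dicer2 25C control. With total counts the median over all genes was itself -0.10. The *Gapdh2* share differed by between -0.97 and 0.51 percentage points with each library left out (-0.32 with all), turning to 0.22 without replicate 3 of the Dicer2 25C control and 0.51 without replicate 1 of the RT control. The log2 ratio of *Ldh* to *PyK* differed by 0.58 to 0.98 with each library left out.

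Over the other lists, 8 genes were called higher and 0 lower. These were 16 and 3 under DESeq2, 16 and 0 under the likelihood ratio test, 8 and 1 with upper quartile scaling, 8 and 3 with total counts, and 0 to 14 higher and 0 to 5 lower with each library left out. Over all genes, 1030 were called (287 with both thresholds). These counts were 1889 (437) under DESeq2, 1369 (495) under the likelihood ratio test and 44 to 1944 (33 to 438) with each library left out.

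The replicate numbers did not pair the libraries: deviations of same-numbered libraries correlated at -0.11, -0.013 and -0.0013. With the replicate block, 0 of the 9 genes, 0 genes of the other lists and 172 genes in all were called (91 with both thresholds), and 9 of 9 log2 fold changes were above 0. Depth limits only *Ldh*, with 107 to 549 counts.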
